A study of Mus musculus with 51 samples.

Results

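Matricellular proteins are secreted into the extracellular matrix, where they act on cells through surface receptors and on the matrix itself, and contribute little to its mechanical framework. In the hematopoietic niche they are produced largely by stromal cells. Several of them, among them periostin, tenascin-C and pleiotrophin, are known to act on hematopoietic stem and progenitor cells (HSPCs). The 10 genes described here were chosen by name from this class and its neighbours: Postn, Tnc, Ptn, Mdk, Mgp, Prg4, Thbs1, Thbs2, Sparc and Efemp1. Each had 1 probe set that named a single gene, so 10 of 19938 genes measured are covered, and all 10 matched the RefSeq gene table.

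The arrays, Affymetrix mouse gene ST arrays, measured RNA of mouse stromal lines, most of them labelled as clones, in 17 groups of 3. From the aorta-gonad-mesonephros region (AGM) of (CBAxC57BL/10)F1 embryos at day 11, 4 lines were derived: the less-supportive UG26.3B5 and, labelled supportive of HSPCs, UG26.1B6, AM14-1C4 and AM30-3F4. From C57BL/6 fetal liver (FL) at embryonic day 14.5 came the supportive AFT024 and 2012 and the non-supportive BFC012, BFC and AFT011; the label of BFC carries no clone number, and it was treated as a separate line. Adult bone marrow (BM) gave BMC9 (supportive) and BMC10 (less-supportive), both of strain H2ts6, and the supportive BALB/c line 14F1-1. OP9, supportive, came from fetal calvaria of (C57BL/6xC3H)F2-op/op mice. These 13 lines were grown to confluence on gelatin at 33 °C, except 14F1-1 and replicates 1 and 2 of OP9, which were kept at 37 °C. The other 4 groups were AFT024 and BFC012 cultured for 4 days with (+KLS) or without (-KLS) bone marrow c-Kit+Sca1+Lin- cells, a fraction rich in HSPCs, and then sorted as cells lacking the leukocyte antigen CD45.

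Each line is a single clone or line, so a difference between 2 lines describes those lines; tissue, strain and age change together and cannot be told apart, and neither can temperature in comparisons of 14F1-1 or of the OP9 arrays kept at 37 °C. Whether the 3 arrays of a group came from separate cultures is not stated, so the p-values refer only to array-to-array spread, possibly technical. Signals are log2 values that had been normalized in 4 separate sets of 18, 6, 12 and 15 arrays, and levels are compared only within a set: the UG26, AFT024, BFC012 and BMC lines, then OP9 with BFC, then the sorted stroma, then 14F1-1, 2012, AFT011 and the AM lines. Levels of different genes are not compared, since each probe set has its own response. Differences are given as log2 values ± standard error, with the fold change, from a limma model across all genes, and a gene passed at an adjusted p under 0.05. Mesenchymal markers were present in all lines: of 9 (such as Col1a1, Col1a2 and Pdgfrb), between 6 and 8 lay above the median gene signal of their set. The means of 12 hematopoietic markers stayed between 3.84 and 6.38 on every array, across sets normalized apart. With all 12 sorted arrays fitted, both Ptprc, which encodes CD45, and the other 11 showed no call with KLS cells in either line. Of all genes, 0.351% passed with KLS cells in AFT024 and 0.883% in BFC012. Single markers did differ between confluent lines. Among them, Lyz2 was higher by 4.00 ± 0.13 in AM14-1C4 than in AM30-3F4 (limma, adjusted p = 7.34e-23). In OP9 3 of the 12 were higher and 1 lower than in BFC, against 34.4% of all genes.

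The RefSeq promoter table (GRCm38.p6) held 8 transcription starts of 6 of the 10 genes: Postn and Tnc with 2 each, and Ptn, Efemp1, Sparc and Thbs2 with 1 each. Mdk, Mgp, Prg4 and Thbs1 had no entry. The stretches from 45 to 16 bases before the starts of Postn, Tnc, Ptn, Efemp1 and Thbs2, whose group means spanned over 2 log2 units in both larger sets of confluent lines, are shown 5′ to 3′, because the TATA box of a regulated promoter sits there; capitals mark the motifs TATATAA and TATAAA, which overlap in the second Postn line.
Postn, first start, chr3:54359222-54359251, plus strand: tgtctccggctctttttttttttttttttt
Postn, second start, chr3:54361062-54361091, plus strand: ctcccacagcccagagcTATATAAActcag
Tnc, first start, chr4:64047031-64047060, minus strand: gggagggctgtgcctttaactcaccaactg
Tnc, second start, chr4:64046952-64046981, minus strand: agaggaaggagctcccTATATAAgcctgcc
Ptn, chr6:36810195-36810224, minus strand: cctcgcacagcctgcttcttctctctgccc
Efemp1, chr11:28853160-28853189, plus strand: cctccctctctctcctccgccccccttcgc
Thbs2, chr17:14694278-14694307, minus strand: ctgtctggaaagcctgggtggacctgtagg
One start each of Postn and Tnc therefore carried TATATAA in this window, while the windows of Ptn, Efemp1 and Thbs2 carried neither motif. Searched on both strands, TATATAA lay in this window at 0.724% of all 32851 starts of the table and TATAAA at 2.72%. A match describes letters and is not a measured site, and the arrays do not tell which start was used.

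**Figure D1:**
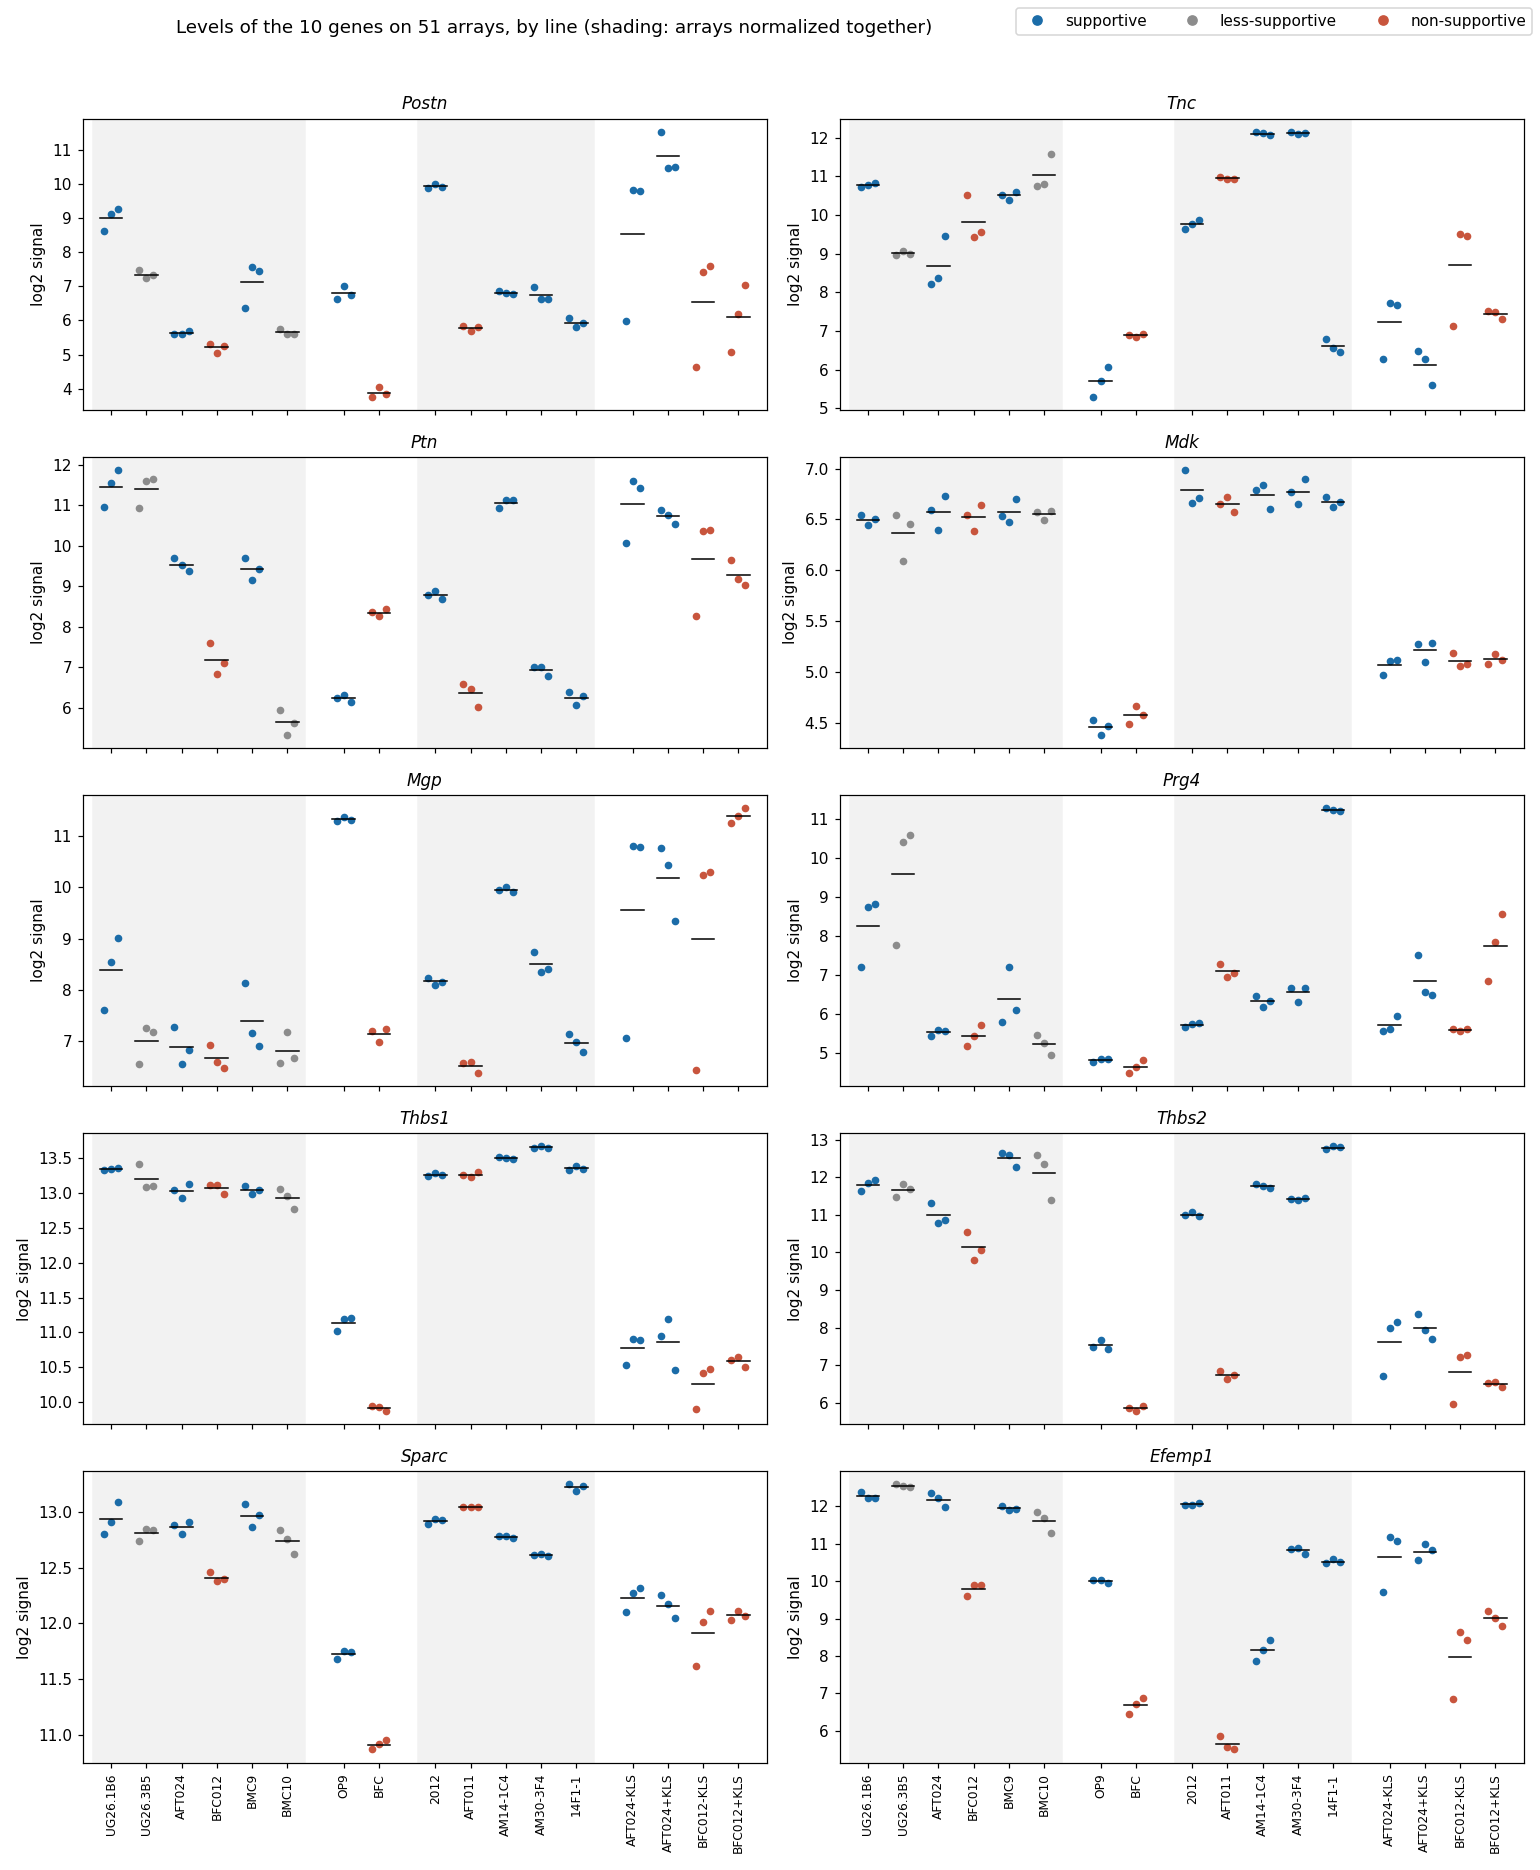
Log2 signal (vertical axis) of each of the 10 genes on all 51 arrays, by line (horizontal axis). Points are arrays, black bars group means, colours the support label, and shaded or white blocks the sets normalized together, within which levels can be compared. Mdk is nearly flat within each block, whereas Postn, Tnc, Ptn, Prg4, Thbs2 and Efemp1 span several log2 units between lines.

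The spread between lines is given as a description of genes picked by name, beside all genes, low-signal ones included. Among the 6 lines of the UG26, AFT024, BFC012 and BMC set, the group means of 6 of the 10 genes spanned more than 2 log2 units, against 4.87% of all genes. In the set of 14F1-1, 2012, AFT011 and the AM lines it was 7 of 10, against 5.17%. The median span was 2.37 for the 10 genes and 0.38 for all genes in the former set, and 4.48 against 0.41 in the latter. When the lines were ordered by the level of each gene, 14 of 50 neighbouring pairs in the former set and 17 of 40 in the latter differed at an adjusted p under 0.05 in limma. Over all possible pairs of lines, a mean of 26.6% and 32.7% of all genes passed. The measures are unlike, because neighbours are the closest lines of each gene, ordered by the same values. The remaining neighbours did not pass, although the arrays of some did not overlap, as with Postn in AFT024 and BFC012. With only the arrays of each set fitted, 39 neighbouring pairs passed in place of 31.

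Counted by pair, 4 of the 10 genes passed between UG26.1B6 and UG26.3B5, 3 higher and 1 lower in the supportive line, where 8.56% of all genes passed (4.34% higher and 4.22% lower). Between AFT024 and BFC012 it was 5, with 4 higher and 1 lower, against 28.5% of all genes (15.6% and 12.9%). BMC9 and BMC10 differed in 3, all higher in BMC9, against 15.5% (7.28% higher and 8.18% lower). OP9 and BFC differed in 8, of which 6 were higher and 2 lower in OP9, against 34.4% (17.5% and 16.9%). Lines 2012 and AFT011 differed in 7, with 5 higher and 2 lower in 2012, against 27.6% (13.4% of all genes higher). The pair of supportive AGM lines, AM14-1C4 and AM30-3F4, differed in 3, with 2 higher and 1 lower in AM14-1C4, against 31.6% (15.9% and 15.8%), a share near the background. The median difference of the 10 genes was 0.14, 0.32, 0.37, 1.02, 0.90 and 0.03 in these 6 pairs, in the same order, beside medians over all genes between -0.02 and 0.07.

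**Figure D2:**
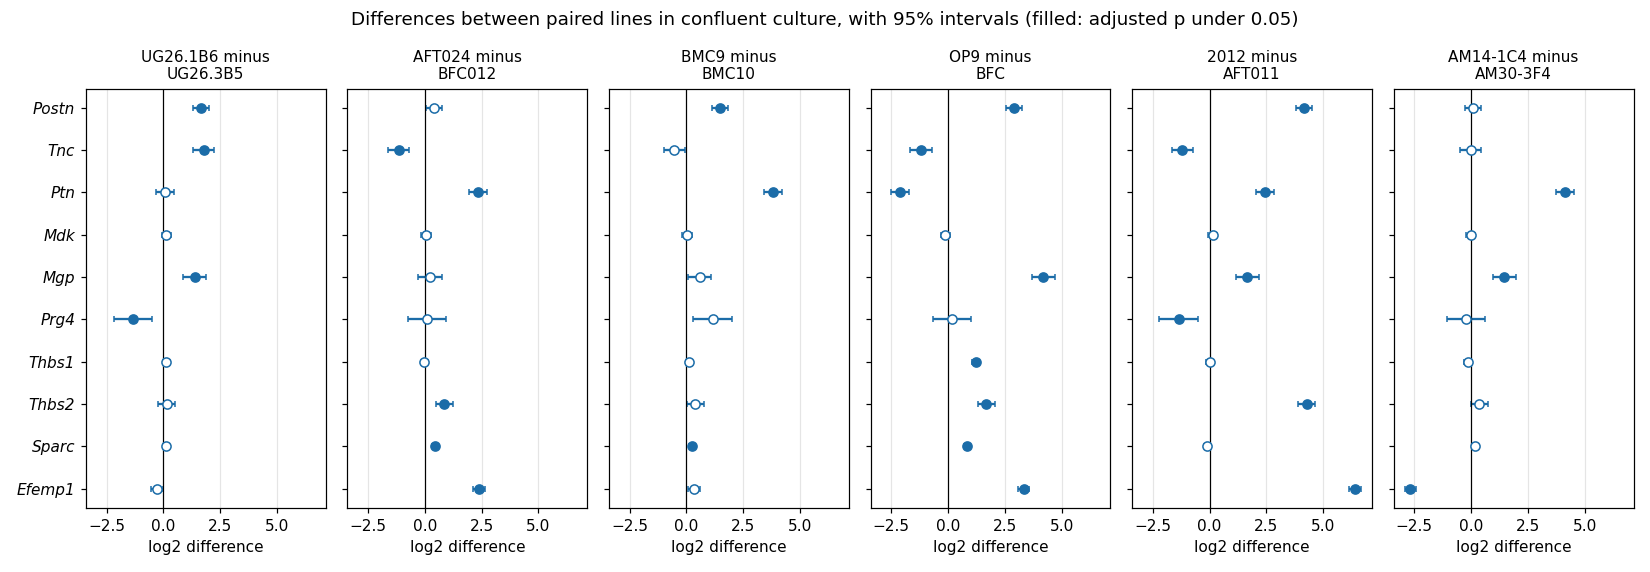
Log2 difference between 2 lines (horizontal axis), first-named minus second-named, for the 10 genes (vertical axis) in 6 pairs of confluent lines. Points are differences with 95% confidence intervals from limma, filled where the adjusted p is under 0.05. Postn lies to the right of 0 in the first 5 panels, which each set a supportive line against a less-supportive or non-supportive one, while Tnc lies to the right in the UG26 pair and to the left in the other 4.

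Periostin, encoded by Postn (chr3:54359267-54391041), is a secreted fasciclin-domain protein that binds integrins and collagen. Its mean was higher in the supportive line of all 5 pairs that differ in support, and 4 of the 5 differences passed. UG26.1B6 gave 8.63, 9.12 and 9.26, and UG26.3B5 gave 7.47, 7.23 and 7.32. The groups did not overlap, and the difference was 1.66 ± 0.18, or 3.16-fold (limma, adjusted p = 1.62e-08). BMC9 gave 6.38, 7.55 and 7.44 against 5.74, 5.60 and 5.62 in BMC10, with replicate 1 of BMC9 below its 2 mates yet above every BMC10 array. This difference was 1.47 ± 0.18, or 2.77-fold (limma, adjusted p = 8.45e-08).

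Postn differed more in the pairs of OP9 and 2012. OP9 gave 6.64, 7.01 and 6.74, and BFC 3.77, 4.05 and 3.85, a gap of 2.91 ± 0.18 or 7.51-fold (limma, adjusted p = 1.96e-15). Line 2012 gave 9.89, 9.99 and 9.91, and AFT011 5.84, 5.68 and 5.81, a gap of 4.16 ± 0.18 or 17.8-fold (limma, adjusted p = 1.83e-19). In neither pair did the groups overlap. The means of BFC (3.89) and AFT011 (5.77) lay under the first quartiles of gene signals of their sets, 4.09 and 6.01, as did that of BMC10 (5.65) under 5.74 in its set. The smallest gap was in confluent AFT024, at 5.60, 5.60 and 5.69 against 5.32, 5.06 and 5.26 in BFC012. These arrays did not overlap, but the difference of 0.41 ± 0.18 did not pass (limma, adjusted p = 0.0808), and both lines lay under the same first quartile of 5.74. With the 6 arrays of the pair alone it passed (limma, adjusted p = 0.0178).

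The order of Postn was therefore not an order of support across tissues. UG26.1B6 stood highest in its set at 9.00 ± 0.33 (SD, n = 3). The less-supportive UG26.3B5, at 7.34 ± 0.12, and the supportive BMC9, at 7.12 ± 0.65 (SD, n = 3 each), did not differ beyond their spread. The supportive AFT024 stood next to the less-supportive BMC10, and these too were not separated (0.03 ± 0.18). Below both lay the non-supportive BFC012, at a mean of 5.21, which did not pass against either. In the other set 2012 stood 3.11 ± 0.18 above AM14-1C4, the next line (limma, adjusted p = 3.83e-16), and supportive 14F1-1, at 5.94 ± 0.13 (SD, n = 3), was not separated from non-supportive AFT011 (0.16 ± 0.18).

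Tenascin-C, encoded by Tnc (chr4:63959785-64047015), is a large hexameric glycoprotein of embryonic and remodelling matrix. It was higher in the supportive line of the UG26 pair and lower in that of 3 other pairs. UG26.1B6 gave 10.73, 10.78 and 10.82, and UG26.3B5 8.98, 9.06 and 8.98, with no overlap. The difference was 1.78 ± 0.23 or 3.42-fold (limma, adjusted p = 8.02e-07).

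In the FL lines and in OP9 the sign was the opposite. AFT024 gave 8.21, 8.38 and 9.45 and BFC012 10.51, 9.42 and 9.55, so that replicate 3 of AFT024 reached the range of BFC012, with a difference of -1.15 ± 0.23 (limma, adjusted p = 1.53e-04; with the 6 arrays of the pair alone, adjusted p = 0.0569). Line 2012 gave 9.64, 9.77 and 9.86 and AFT011 10.98, 10.93 and 10.94, a difference of -1.19 ± 0.23 (limma, adjusted p = 1.16e-04). OP9 gave 5.30, 5.71 and 6.07 and BFC 6.90, 6.83 and 6.92, a difference of -1.19 ± 0.23 (limma, adjusted p = 6.78e-05). The latter 2 pairs did not overlap, and the OP9 array kept at 33 °C, with 6.07, also lay below all BFC arrays. BMC9 (10.52, 10.39 and 10.61) was below BMC10 (10.74, 10.81 and 11.57) on every array, but the difference of -0.54 ± 0.23 did not pass (limma, adjusted p = 0.122).

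Among the lines of the last set Tnc was highest in both AM lines, with 12.15, 12.11 and 12.06 in AM14-1C4 and 12.15, 12.11 and 12.11 in AM30-3F4. These overlapped, with a difference of -0.02 ± 0.23. Line 14F1-1, from adult marrow, gave 6.80, 6.56 and 6.46 and stood lowest, 3.15 ± 0.23 below 2012 (limma, adjusted p = 1.89e-13). The distance from AM30-3F4 to 14F1-1 was 5.52 log2 units, or 45.8-fold, although both lines are labelled supportive.

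Pleiotrophin, encoded by Ptn (chr6:36714924-36810179), is a heparin-binding growth factor that signals through the receptor phosphatase Ptprz1 and through syndecans, and is known to promote expansion of hematopoietic stem cells. It had the widest span of the 10 genes in the UG26, AFT024, BFC012 and BMC set, 5.83 log2 units or 56.7-fold. The low end of that span was BMC10, whose mean of 5.63 lay under the first quartile of 5.74, so the size of the folds against it is uncertain. BMC9 gave 9.70, 9.16 and 9.43 and BMC10 5.95, 5.33 and 5.62, a difference of 3.80 ± 0.20 or 13.9-fold (limma, adjusted p = 1.44e-16). AFT024 gave 9.70, 9.51 and 9.38 and BFC012 7.61, 6.83 and 7.10, a difference of 2.35 ± 0.20 or 5.11-fold (limma, adjusted p = 9.50e-12). Line 2012 gave 8.78, 8.88 and 8.68 and AFT011 6.57, 6.46 and 6.02, a difference of 2.43 ± 0.20 or 5.38-fold (limma, adjusted p = 7.22e-12). In these 3 pairs every array of the supportive line lay above every array of its partner.

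In 2 other pairs Ptn did not follow the label. The UG26 lines overlapped, with 10.96, 11.55 and 11.87 in UG26.1B6 and 10.92, 11.60 and 11.66 in UG26.3B5, and the difference was 0.07 ± 0.20 with a 95% interval from -0.33 to 0.47. OP9 gave 6.24, 6.30 and 6.14 against 8.35, 8.25 and 8.43 in the non-supportive BFC, without overlap and with a difference of -2.12 ± 0.20, or 4.34-fold lower (limma, adjusted p = 8.24e-11). Ptn also separated the supportive AGM lines from each other: AM14-1C4 gave 10.92, 11.12 and 11.13 and AM30-3F4 7.00, 7.00 and 6.78, 4.13 ± 0.20 or 17.5-fold apart (limma, adjusted p = 5.50e-18). Supportive 14F1-1, at 6.39, 6.06 and 6.29, was not separated from non-supportive AFT011 (0.10 ± 0.20; limma, adjusted p = 0.746).

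Midkine, encoded by Mdk (chr2:91929805-91932297), is the only close relative of pleiotrophin, and its signal was nearly flat. Its group means spanned 0.21 log2 units in the UG26, AFT024, BFC012 and BMC set and 0.14 in the set of the AM lines, against array SDs of 0.12 (median over groups) in both. In every set its group means lay under the median gene signal. The highest were 6.57 against a median of 7.30 and 6.79 against 7.43 in these sets. Whether its single probe set responds weakly was not tested, so the flat signal need not mean an even level. Mdk passed in 0 of the 6 pairs in limma, and also in 0 at an unadjusted p under 0.05. Its largest difference among them was 0.14 ± 0.10, between 2012 and AFT011.

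Thbs1 and Thbs2 encode trimeric thrombospondins, glycoproteins that bind Cd36 and Cd47 and curb angiogenesis. Thbs1 (chr2:118111876-118127133) had group means that spanned 0.41 log2 units in the UG26, AFT024, BFC012 and BMC set and 0.39 in the set of the AM lines. Its signals there were high, from 12.77 to 13.67 on every array, and whether the probe set was near saturation was not tested. OP9 differed, with 11.02, 11.20 and 11.20 against 9.94, 9.93 and 9.87 in BFC, 1.22 ± 0.08 or 2.34-fold higher and without overlap (limma, adjusted p = 2.97e-15). Thbs2 (chr17:14665500-14694262) was higher in the supportive line of 3 pairs. Line 2012 gave 10.99, 11.07 and 10.96 and AFT011 6.84, 6.63 and 6.74, a difference of 4.27 ± 0.18 or 19.3-fold (limma, adjusted p = 2.73e-19).

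The Thbs2 gaps in the other pairs were smaller. OP9 gave 7.48, 7.67 and 7.43 and BFC 5.86, 5.78 and 5.90, without overlap, a difference of 1.68 ± 0.18 (limma, adjusted p = 2.76e-09). AFT024 gave 11.33, 10.77 and 10.86 and BFC012 10.54, 9.81 and 10.08, also without overlap, a difference of 0.84 ± 0.18 (limma, adjusted p = 4.34e-04). The UG26 pair (0.15 ± 0.18) and the BMC pair (0.39 ± 0.18) did not pass, and their arrays overlapped. AFT011 was the only line of its set with low Thbs2: the 4 supportive lines had means from 11.01 ± 0.05 in 2012 to 12.79 ± 0.04 in 14F1-1 (SD, n = 3 each), and AFT011 6.74 ± 0.10 (SD, n = 3).

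Sparc (chr11:55394159-55420080) encodes osteonectin, a collagen-binding protein of bone and connective tissue. Its differences were small and its arrays close together. The signals were high in the UG26 and AM sets, with group means from 12.41 to 12.97 and from 12.61 to 13.22. As for Thbs1, whether the probe set was near saturation was not tested. AFT024 gave 12.88, 12.80 and 12.91 and BFC012 12.46, 12.38 and 12.39, a difference of 0.45 ± 0.06 or 1.37-fold (limma, adjusted p = 7.60e-07). OP9 gave 11.68, 11.75 and 11.74 and BFC 10.87, 10.91 and 10.95, a difference of 0.81 ± 0.06 or 1.76-fold (limma, adjusted p = 1.76e-12). Neither pair overlapped. BMC9 exceeded BMC10 by 0.23 ± 0.06 (limma, adjusted p = 0.0117), a call that was lost with the replicate block (adjusted p = 0.16). That call was also lost with the 6 arrays of the pair alone (adjusted p = 0.217) and the 18 arrays of the set (adjusted p = 0.106). Leaving out BMC9 replicate 1 or BMC10 replicate 3 lost it too (adjusted p = 0.102 and 0.118). Line 2012 lay below AFT011 on every array, by 0.13 ± 0.06, which did not pass (limma, adjusted p = 0.134) but did with the 15 arrays of the set alone (adjusted p = 0.0377).

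Efemp1 (chr11:28853154-28926743) encodes fibulin-3, a secreted protein with EGF-like repeats that binds elastic-fibre components. It showed the largest single difference of the 10 genes. Line 2012 gave 12.03, 12.04 and 12.10 and AFT011 5.85, 5.57 and 5.51, a difference of 6.41 ± 0.13 or 85.1-fold (limma, adjusted p = 7.66e-29), and AFT011 lay under the first quartile of gene signals of its set. OP9 gave 10.02, 10.04 and 9.96 and BFC 6.46, 6.72 and 6.88, a difference of 3.32 ± 0.13 or 10.0-fold (limma, adjusted p = 5.51e-21). AFT024 gave 12.35, 12.21 and 11.97 and BFC012 9.60, 9.91 and 9.90, a difference of 2.37 ± 0.13 or 5.18-fold (limma, adjusted p = 6.10e-17). All 3 non-supportive FL lines thus had Efemp1 below their comparison line, without overlap.

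BMC9 (12.01, 11.89 and 11.94) lay above BMC10 (11.85, 11.69 and 11.28) on every array, by 0.34 ± 0.13, which did not pass (limma, adjusted p = 0.0668) but did without BMC10 replicate 1 (adjusted p = 0.0164). UG26.1B6 (12.37, 12.21 and 12.22) lay below UG26.3B5 (12.59, 12.54 and 12.50) on every array, a difference of -0.27 ± 0.13 that did not pass (limma, adjusted p = 0.2); with the replicate numbers as a block it did (adjusted p = 0.043). Of the supportive AGM lines, AM14-1C4 gave 7.86, 8.16 and 8.42 and AM30-3F4 10.86, 10.88 and 10.73, a difference of -2.67 ± 0.13, or 6.38-fold lower, without overlap (limma, adjusted p = 3.40e-18). In this pair Ptn and Efemp1 passed in opposite directions.

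Mgp (chr6:136872435-136875823) encodes matrix Gla protein, a vitamin K-dependent inhibitor of calcification. OP9 gave 11.30, 11.38 and 11.31 and BFC 7.20, 6.98 and 7.23, a difference of 4.19 ± 0.25 or 18.3-fold (limma, adjusted p = 1.62e-15). Line 2012 gave 8.23, 8.10 and 8.16 and AFT011 6.56, 6.59 and 6.37, a difference of 1.65 ± 0.25 or 3.15-fold (limma, adjusted p = 3.43e-06). UG26.1B6 gave 7.60, 8.54 and 9.01 and UG26.3B5 6.56, 7.24 and 7.18, a difference of 1.39 ± 0.25 or 2.62-fold (limma, adjusted p = 2.04e-04). None of these 3 pairs overlapped, although the UG26.1B6 arrays were widely spread and the UG26 call was lost with the 6 arrays of that pair alone (adjusted p = 0.0723). AFT024 and BFC012 overlapped and did not pass (0.22 ± 0.25; limma, adjusted p = 0.615). BMC9 and BMC10 also overlapped and did not pass (0.59 ± 0.25; limma, adjusted p = 0.124), but did without BMC9 replicate 3 (adjusted p = 0.0328). Supportive 14F1-1 was not separated from non-supportive AFT011 (0.46 ± 0.25; limma, adjusted p = 0.17). AM14-1C4, at 9.94, 10.00 and 9.90, exceeded AM30-3F4, at 8.74, 8.35 and 8.40, by 1.45 ± 0.25 (limma, adjusted p = 1.61e-05).

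Prg4 (chr1:150449412-150466221) encodes lubricin, a mucin-like glycoprotein that lubricates joint surfaces. In the set of 14F1-1, 2012, AFT011 and the AM lines its highest level was in 14F1-1, at 11.29, 11.24 and 11.22, 4.16 ± 0.42 above the next line of that set, AFT011 (limma, adjusted p = 3.75e-10). AFT011 gave 7.29, 6.95 and 7.04 and 2012 5.67, 5.75 and 5.77, so that the supportive 2012 was lower by 1.37 ± 0.42 without overlap (limma, adjusted p = 0.0129). This call was lost without AFT011 replicate 1 (adjusted p = 0.0516), and 2012 lay under the first quartile of 6.01. UG26.1B6 gave 7.21, 8.75 and 8.83 and UG26.3B5 7.77, 10.41 and 10.61, with replicate 1 low in both lines and overlapping ranges, a difference of -1.33 ± 0.42 (limma, adjusted p = 0.0401). That call was lost with the 18 arrays of the set (adjusted p = 0.262) and without replicate 1 of UG26.1B6 or replicate 2 or 3 of UG26.3B5 (adjusted p = 0.261, 0.26 and 0.297). BMC9 (5.80, 7.21 and 6.12) lay above BMC10 (5.47, 5.26 and 4.94) on every array, by 1.15 ± 0.42, which did not pass (limma, adjusted p = 0.057) but did with the replicate block (adjusted p = 0.0307).

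Whether the gap between the supportive and the other line differed between the UG26 (AGM), AFT024 and BFC012 (FL) and BMC (BM) pairs could be tested within their set. With 1 pair of lines from each tissue, the tests compare these pairs of lines and not tissues. They were chosen after the data were seen. Between the AGM and FL pairs the gap differed in 7 of the 10 genes, against 24% of all genes (10.9% higher and 13.2% lower). The gap was larger in the AGM pair by 2.92 ± 0.32 for Tnc, by 1.25 ± 0.25 for Postn and by 1.17 ± 0.36 for Mgp. It was smaller in the AGM pair for Efemp1 (-2.65 ± 0.18), Ptn (-2.29 ± 0.28), Thbs2 (-0.69 ± 0.26) and Sparc (-0.33 ± 0.09). The calls of Mgp, Thbs2 and Sparc were lost with the 18 arrays of the set alone (limma, adjusted p = 0.115, 0.216 and 0.067). Between the AGM and BM pairs it differed in 4 genes, against 12.6% of all genes (6.49% higher and 6.16% lower): Tnc (2.31 ± 0.32), Ptn (-3.73 ± 0.28), Prg4 (-2.48 ± 0.59) and Efemp1 (-0.61 ± 0.18). Between the FL and BM pairs it differed in 3, against 25.5% (14% higher and 11.5% lower): Efemp1 (2.04 ± 0.18), Ptn (-1.44 ± 0.28) and Postn (-1.06 ± 0.25). Without BMC10 replicate 3 it differed in 6 between the FL and BM pairs, with Tnc, Thbs2 and Sparc gained. In that fit 4739 of all genes passed, against 5077 with all arrays. The Tnc gap of the UG26 pair thus differed from that of both other pairs of lines. The calls of Prg4 and Efemp1 between the AGM and BM pairs were lost with the 18 arrays of the set alone (limma, adjusted p = 0.0835 and 0.0501).

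Markers of mesothelium and epithelium moved with the FL and OP9 comparisons. Of 10 such markers (Wt1, Upk1b, Upk3b, Msln, Cdh1, Epcam and 4 keratins), 5 were lower and 2 higher in AFT024 than in BFC012, 6 lower and 1 higher in 2012 than in AFT011, and 5 lower and 0 higher in OP9 than in BFC. Array means of the list ran from 8.18 to 8.41 in BFC012 against 6.86 to 7.00 in AFT024, and from 8.59 to 8.65 in AFT011 against 6.89 to 7.15 in 2012. They were 5.64 to 5.71 in BFC against 4.77 to 4.86 in OP9. The difference of the uroplakin Upk1b was -5.19 in AFT024, -5.81 in 2012 and -3.70 in OP9, each against its partner. In the UG26 pair 2 of the 10 were lower and 0 higher, and the array means lay between 7.19 and 7.35 in both lines. In the BMC pair 2 were lower and 0 higher. Of 9 mesenchymal markers, 5 were higher and 1 lower in AFT024 than in BFC012, with 4 and 1 in 2012 against AFT011 and 6 and 1 in OP9 against BFC. In BMC9 against BMC10 they numbered 5 and 1, in AM14-1C4 against AM30-3F4 5 and 2, and in the UG26 pair 1 and 0. Of all genes, 8.56% passed in the UG26 pair, 28.5% in AFT024 against BFC012 and 15.5% in the BMC pair. In OP9 against BFC it was 34.4%, in 2012 against AFT011 27.6% and in the AM pair 31.6%. The part of either list in the differences of Postn, Ptn, Thbs2, Efemp1 and the others was not tested.

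The sorted stroma asked how the FL lines respond to contact with KLS cells. In bulk samples fewer cells of a type and less RNA per cell cannot be told apart. Before the results, 3 of the 12 arrays have to be named: replicate 1 of AFT024-KLS, of BFC012-KLS and of AFT024+KLS correlated with their group mates at 0.972 to 0.977, while the other pairs within groups reached 0.993 to 0.996. They lay more than 1 log2 unit from the mean of their mates in 616, 798 and 507 genes, and in 6, 6 and 1 of the 10 genes described here. Results of the 10 genes are therefore given with all arrays. As alternatives chosen after seeing the data, they are also given without replicate 1 of both groups grown alone or without all 3 arrays. The mean of the 9 mesenchymal markers was also low in 2 of them, at 6.79 in AFT024-KLS replicate 1 against 7.34 and 7.41, and at 6.52 in BFC012-KLS replicate 1 against 7.71 and 7.77, but not in AFT024+KLS replicate 1, at 7.13 against 7.18 and 6.97; its part in the results was not tested. Of the 10 mesothelial and epithelial markers, 5 were lower and 0 higher in sorted AFT024 than in BFC012 grown alone, and 3 lower and 1 higher with KLS cells. Of all genes, 7.32% and 11.6% passed in these comparisons, with all arrays fitted. Marker and related lists were counted in that fit only. The part of these markers was not tested either.

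**Figure D3:**
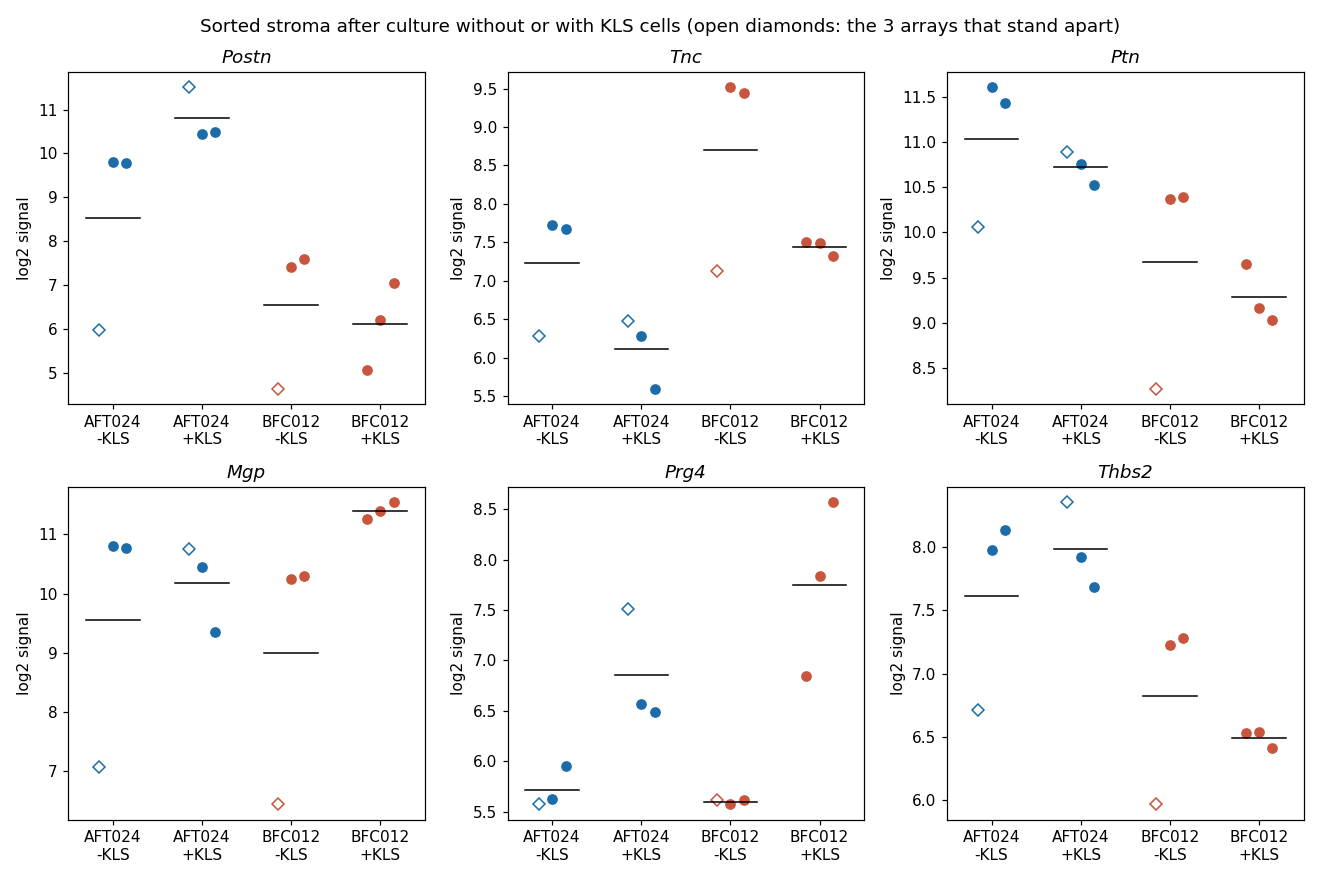
Log2 signal (vertical axis) of 6 genes on the 12 arrays of sorted stroma, by line and culture without or with KLS cells (horizontal axis). Points are arrays and bars group means, blue for AFT024 and red for BFC012, with open diamonds for the 3 arrays that stand apart. In stroma grown alone the open diamonds lie far below their mates for all genes shown except Prg4, as with Mgp at 7.06 against 10.81 and 10.78 in AFT024.

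Grown alone, sorted AFT024 and BFC012 differed in 1 of the 10 genes, against 7.32% of all genes (3.51% higher and 3.81% lower). Efemp1 gave 9.71, 11.18 and 11.06 in AFT024-KLS and 6.84, 8.65 and 8.43 in BFC012-KLS, without overlap, a difference of 2.68 ± 0.46 or 6.41-fold (limma, adjusted p = 0.00575). Postn gave 5.98, 9.82 and 9.79 against 4.62, 7.41 and 7.59, where replicate 1 was low in both lines and the ranges overlapped, and the difference of 1.99 ± 1.04 did not pass (limma, adjusted p = 0.31). Tnc gave 6.28, 7.73 and 7.68 against 7.13, 9.52 and 9.45, again overlapping, with a difference of -1.47 ± 0.58 (limma, adjusted p = 0.167).

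Same-numbered arrays of these 2 groups deviated together, at correlations from 0.466 to 0.671, but arrays of different number reached 0.501. Replicate 1 stood apart in both groups, so pairing by number is uncertain. With the replicate number as a block 7 genes passed: Postn, Tnc, Ptn, Mgp, Thbs1, Thbs2 and Efemp1. Without replicate 1 of both groups 5 passed. These were Postn at 2.30 ± 0.43, Tnc at -1.78 ± 0.18, Ptn at 1.14 ± 0.17, Thbs2 at 0.80 ± 0.11 and Efemp1 at 2.59 ± 0.13 without all 3 arrays that stand apart, a fit with the same 5 calls. With only the 6 arrays of the pair 0 passed, with Efemp1 at an adjusted p of 0.0603 in limma. Over all 19938 genes, 3152 passed with the block, 2405 without replicate 1 of both groups and 3901 without all 3 arrays. With only the 6 arrays it was 884, against 1459 with all arrays.

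With KLS cells, AFT024 and BFC012 differed in 3 of the 10 genes, all higher in AFT024, against 11.6% of all genes (6.09% higher and 5.52% lower). Postn gave 11.52, 10.45 and 10.49 in AFT024+KLS and 5.06, 6.19 and 7.04 in BFC012+KLS, far apart and without overlap, a difference of 4.72 ± 1.04 (limma, adjusted p = 0.0138). Efemp1 gave 10.56, 10.98 and 10.83 against 9.20, 9.02 and 8.81, also without overlap, a difference of 1.78 ± 0.46 (limma, adjusted p = 0.0286). Thbs2 gave 8.36, 7.92 and 7.69 against 6.53, 6.54 and 6.42, a difference of 1.49 ± 0.40 with the groups apart (limma, adjusted p = 0.0331). Leaving out 1 array reduced the count to 1 in 5 of 6 cases. Over all genes, 1381 to 1554 passed in these cases, against 2314 with all arrays. Without AFT024+KLS replicate 2 or 3 or BFC012+KLS replicate 2 or 3, Postn alone passed, and without BFC012+KLS replicate 1 it was lost (adjusted p = 0.0649).

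Without replicate 1 of both groups grown alone, 6 genes passed between the lines with KLS cells, and without all 3 arrays 7. Of all 19938 genes, 3924 passed in the former fit and 5354 in the latter, against 2314 with all arrays. In the latter fit the additional calls were Tnc at -1.50 ± 0.16, Ptn at 1.35 ± 0.16, Mgp at -1.50 ± 0.23 and Prg4 at -1.22 ± 0.35. Ptn gave 10.89, 10.75 and 10.52 in AFT024+KLS and 9.65, 9.17 and 9.03 in BFC012+KLS, without overlap. Mgp gave 10.76, 10.44 and 9.34 against 11.26, 11.39 and 11.55, also without overlap, so that it was the non-supportive line that had more of it.

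**Figure D4:**
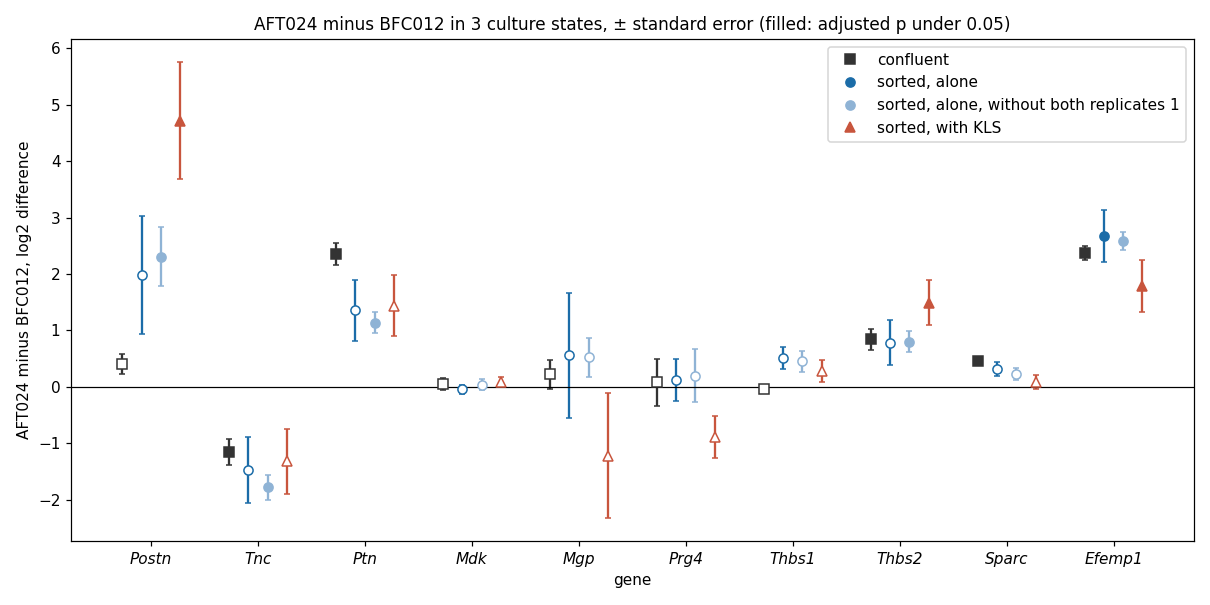
AFT024 minus BFC012 log2 difference (vertical axis) for the 10 genes (horizontal axis) in confluent culture, in sorted stroma grown alone, in the same without replicate 1 of both groups, and in sorted stroma grown with KLS cells. Bars are standard errors and filled symbols have an adjusted p under 0.05. Efemp1 is positive and filled in all 4, and Postn lies at 0.41 in confluent culture and at 4.72 with KLS cells, in sets that were normalized apart.

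The response of each line to KLS cells was small in number of calls. In AFT024, 0 of the 10 genes passed in limma, against 0.351% of all genes (0.296% higher and 0.0552% lower), and 1, Prg4, had an unadjusted p under 0.05. Prg4 gave 5.58, 5.63 and 5.95 alone and 7.51, 6.57 and 6.49 with KLS cells, without overlap, a difference of 1.14 ± 0.37 (limma, adjusted p = 0.288). Postn was also higher with KLS cells on every array, by 2.29 ± 1.04 (limma, adjusted p = 0.542), or by 0.67 ± 0.43 without all 3 arrays that stand apart. Without those arrays, and also without replicate 1 of the groups grown alone, 2 genes passed. They were Tnc, lower at -1.77 ± 0.18 (limma, adjusted p = 1.98e-04), and Ptn, lower at -0.88 ± 0.17 (limma, adjusted p = 0.0125). In these fits 1195 and 413 of all 19938 genes passed, against 70 with all arrays.

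In BFC012, 1 of the 10 genes passed, against 0.883% of all genes (0.612% higher and 0.271% lower). Prg4 gave 5.61, 5.57 and 5.61 alone and 6.85, 7.84 and 8.57 with KLS cells, so that even the lowest array with KLS cells lay above all arrays without. The difference was 2.15 ± 0.37 or 4.45-fold (limma, adjusted p = 0.0227). Its arrays grown alone hardly varied, replicate 1 included, but the call was lost with the 6 arrays of the pair alone (adjusted p = 0.0758) and without replicate 2 or 3 of either group (adjusted p from 0.0746 to 0.112). Without replicate 1 of both groups grown alone 4 genes passed, and without all 3 arrays 7. Of all 19938 genes, 950 and 2069 passed in these fits, against 176 with all arrays.

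The 7 were Prg4 at 2.16 ± 0.35, Mgp at 1.13 ± 0.23, Efemp1 at 0.47 ± 0.12, Tnc at -2.05 ± 0.16, Postn at -1.40 ± 0.39, Ptn at -1.10 ± 0.16 and Thbs2 at -0.76 ± 0.10. Tnc gave 7.13, 9.52 and 9.45 alone and 7.50, 7.49 and 7.32 with KLS cells, where only replicate 1 grown alone lay below the arrays with KLS cells. Ptn gave 8.27, 10.37 and 10.40 alone and 9.65, 9.17 and 9.03 with KLS cells, with the same single array at the bottom. Tnc and Ptn were thus lower with KLS cells in both lines once the arrays that stand apart were left out, and neither was called with all arrays.

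Whether the 2 lines responded differently to KLS cells was tested as an interaction. It passed for 0 of the 10 genes in limma, against 0.0401% of all genes (0.01% higher and 0.0301% lower), and 0 had an unadjusted p under 0.05. Postn had the largest estimate, 2.73 ± 1.48, with a 95% interval from -0.52 to 5.97, which leaves both no difference and a large one within it. Without all 3 arrays that stand apart 1 passed, Mgp, at -2.03 ± 0.34 (limma, adjusted p = 0.00839), and Postn was at 2.06 ± 0.58 (adjusted p = 0.0798). In this fit 758 of all 19938 genes passed, against 8 with all arrays.

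Other matricellular genes were counted from a list of 30, of which 28 were measured. In the UG26 pair 6 were higher and 1 lower in the supportive line. The counts were 12 and 2 in AFT024 against BFC012, 8 and 3 in the BMC pair, 13 and 2 in OP9 against BFC, 8 and 6 in 2012 against AFT011 and 9 and 7 in AM14-1C4 against AM30-3F4, both supportive. The shares of all genes that passed in these 6 pairs were 8.56%, 28.5%, 15.5%, 34.4%, 27.6% and 31.6%. The median differences of the list were 0.10, 0.04, 0.08, 0.27, 0.19 and 0.03, beside medians over all genes between -0.02 and 0.07. Tgfbi, a fasciclin-domain relative of periostin, was higher by 1.75 ± 0.32 in UG26.1B6, by 2.21 ± 0.32 in AFT024, by 2.47 ± 0.32 in BMC9 and by 2.77 ± 0.32 in 2012 than in the paired line (limma, adjusted p from 2.01e-08 to 2.21e-04). It was also higher by 2.25 ± 0.32 in AM14-1C4 than in AM30-3F4, where both are supportive. In sorted AFT024 it was higher than in BFC012 by 2.17 ± 0.26 alone and by 2.79 ± 0.26 with KLS cells. Smoc1, a calcium-binding relative of Sparc, was higher by 2.04 ± 0.17 in UG26.1B6 and by 3.40 ± 0.17 in OP9.

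With KLS cells, Ccn2, a connective tissue growth factor, was the single gene of this list that passed in AFT024, at 1.04 ± 0.13 (limma, adjusted p = 0.00916). In BFC012 it was Ccn1, a cysteine-rich integrin ligand, at -0.93 ± 0.16 (limma, adjusted p = 0.0248). The other 27 did not pass in either line, beside 0.351% of all genes that passed in AFT024 and 0.883% in BFC012.

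The receptors of these proteins were counted from a list of 27, all measured. In the UG26 pair 3 were higher and 2 lower, and in AFT024 against BFC012 7 and 4. The counts were 5 and 1 in the BMC pair, 10 and 6 in OP9 against BFC, 4 and 9 in 2012 against AFT011 and 5 and 10 in the AM pair, beside the same shares of all genes. The medians of the list were 0.10, -0.04, -0.01, 0.09, -0.19 and -0.06. Cd36, the scavenger receptor bound by thrombospondins, was higher by 6.31 ± 0.14 in OP9 than in BFC, the pair in which Thbs1 passed. It was also lower in UG26.1B6 (-1.33 ± 0.14) and higher in BMC9 (1.24 ± 0.14) than in the paired line, where neither Thbs1 nor Thbs2 passed. Ptprz1, the phosphatase bound by pleiotrophin, was lower in 2012 than in AFT011, at -4.93 ± 0.08 (limma, adjusted p = 2.26e-31), while Ptn itself was higher there. The syndecan Sdc3 was higher by 2.02 ± 0.19 in AFT024 and by 1.14 ± 0.19 in BMC9, pairs in which Ptn was higher too. In 2012 and in AM14-1C4 Ptn was higher as well, but Sdc3 was not among the 3 largest receptor differences that passed. With KLS cells and all 12 sorted arrays fitted, 0 of the 27 receptors passed in either line in limma. Of all genes, 0.351% passed in AFT024 and 0.883% in BFC012 in that fit. The list was not counted without the arrays that stand apart.

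Enzymes and matrix partners were counted from a list of 18, all measured. In the supportive line 3 were higher and 0 lower in the UG26 pair, 8 and 0 in the BMC pair and 14 and 0 in OP9 against BFC. The counts were 9 and 3 in AFT024 against BFC012, 6 and 3 in 2012 against AFT011 and 4 and 7 in the AM pair. They stand beside the same shares of all genes as for the other lists. In the order given for the other lists, the medians were 0.24, 0.19, 0.26, 0.88, 0.14 and -0.03. Col1a2, a chain of type I collagen, was higher by 0.62 ± 0.16 in UG26.1B6, 2.91 ± 0.16 in AFT024, 3.26 ± 0.16 in OP9 and 4.41 ± 0.16 in 2012. It was also higher by 1.76 ± 0.16 in AM14-1C4 than in AM30-3F4, where both are supportive. In the BMC pair Col1a2 was not among the 3 largest differences of the list that passed. The crosslinking enzyme Loxl1 was higher by 0.63 ± 0.12, 1.83 ± 0.12 and 1.73 ± 0.12 in UG26.1B6, AFT024 and 2012. With KLS cells 0 of the 18 passed in either line with all 12 sorted arrays fitted, the only fit counted. Of all genes, 0.351% passed there in AFT024 and 0.883% in BFC012.

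Across the 17 groups, each mean taken relative to its set, the closest patterns among the 10 genes were Mgp with Thbs1 and Thbs2 with Efemp1, both with Pearson's r = 0.747, followed by Postn with Efemp1 (r = 0.676). Tnc and Prg4 ran most nearly opposite (r = -0.593). These r describe 17 group means that share arrays and normalization and include the sorted groups with the arrays that stand apart. Among all other genes with a span of at least 1 log2 unit, those most like Postn were Dlc1 (0.838), Bcl9l (0.817) and Alox5ap (0.8). Those most like Tnc were Pfas (0.921), Marcksl1 (0.873) and Sh3bp1 (0.872), and those most like Ptn were Iglon5 (0.894), Osmr (0.882) and Dlk1 (0.851). The gene most like Thbs2 was Tspan6 (0.915), and for Efemp1 it was Ebf3 (0.883), for Mgp Arxes1 (0.852), for Prg4 Thrb (0.929), for Sparc Ccdc80 (0.893), for Thbs1 Serf2 (0.867) and for Mdk Myc (0.836).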

How the data were processed

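For every array the authors deposited 1 log2 signal for each probe set. RMA and Partek are the tools named in the submitters' processing notes; their versions and settings are not given in the sources used here. Array medians were alike within 4 sets of arrays (6.82 to 6.95, 5.04 to 5.09, 5.65 to 5.76 and 7.03 to 7.14) and differed between them. Of 35556 probe sets, 21789 named 1 gene symbol, and the brightest per gene was kept, which left 19938 genes, with no filter on low signal. Gene coordinates and promoter sequences are RefSeq's for GRCm38.p6.

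Differences came from limma 3.58.1 in R 4.3.3, with a mean per group and moderated statistics. One fit held the 39 confluent arrays and one the 12 sorted arrays, and two-sided p-values were adjusted over all genes by the Benjamini-Hochberg method, with a threshold of 0.05. Each fit shares 1 estimate of spread per gene, and 3 arrays per group limit the precision. Likeness is Pearson's r over 17 group means minus the mean of their set, for genes whose means so taken span at least 1 log2 unit; clone-like, microRNA, small nucleolar RNA, olfactory and vomeronasal symbols were left out. Up to 3 genes of a related list per comparison, those past the threshold with the largest differences, could be named. The code was tested on simulated data. The 10 genes and all lists were chosen with earlier results of these data known.

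Same-numbered replicates were called paired where all 3 correlations of their deviations from the group means exceeded 0.1. This held for the UG26 pair (0.535, 0.327 and 0.468), the BMC pair (0.323, 0.116 and 0.435) and the FL pair sorted from stroma grown alone (0.671, 0.517 and 0.466), from the data and not from the labels. The highest correlation of arrays with different numbers was 0.103, 0.194 and 0.501 in these pairs. In the BMC and FL pairs it exceeded the lowest same-numbered value, so the rule does not establish pairing there. Alternatives were fewer arrays in the fit, the replicate block, renewed quantile normalization, a filter on dim genes, the mean of probe sets, an intensity trend with robust moderation, and leaving out arrays. Python 3.11.15 and matplotlib 3.10.9 made the plots.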

Additional observations from a re-analysis of the deposited data

Results flagged for a closer look

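In the set that holds the UG26 (AGM), AFT024 and BFC012 (FL) and BMC (BM) pairs, the gap between the supportive and the other line differed between these pairs of lines, 1 from each tissue, by a test of the difference itself (limma, adjusted p under 0.05, 3 arrays per line). The AGM gap minus the FL gap was 1.25 for Postn, 2.92 for Tnc, -2.29 for Ptn, 1.17 for Mgp, -0.69 for Thbs2, -0.33 for Sparc and -2.65 for Efemp1. The AGM gap minus the BM gap was 2.31 for Tnc, -3.73 for Ptn, -2.48 for Prg4 and -0.61 for Efemp1. The FL gap minus the BM gap was -1.06 for Postn, -1.44 for Ptn and 2.04 for Efemp1. Of all genes, 24%, 12.6% and 25.5% passed in these tests, which were chosen after the data were seen. With the 18 arrays of the set alone, the AGM minus FL calls of Mgp, Thbs2 and Sparc were lost. The AGM minus BM calls of Prg4 and Efemp1 were lost as well.

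Other opposite directions, with every array of one line on one side of its partner, lie in sets normalized apart or in different sets of lines, and the difference between the pairs was not tested. Tnc was higher in UG26.1B6 than in its partner and lower in OP9 than in BFC (-1.19) and in 2012 than in AFT011 (-1.19). Ptn was lower in OP9 than in BFC (-2.12) and higher in AFT024, BMC9 and 2012 than in their partners. Prg4 was lower in 2012 than in AFT011 (-1.37) while all BMC9 arrays lay above BMC10. Sparc lay lower in 2012 than in AFT011 (-0.13), a difference that did not pass, and higher in AFT024, BMC9 and OP9 than in their partners. Efemp1 lay lower in UG26.1B6 than in UG26.3B5 (-0.27), which did not pass, and higher in OP9 and 2012 than in their partners.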

How the results depend on the processing

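Counts of the 10 genes stayed within 1.5 times in most settings. Fitted on the arrays of the pair alone, 2 passed in the UG26 pair, 6 in the AM pair, 0 between the lines grown alone, 6 between them with KLS cells and 0 for KLS cells in BFC012. Over all 19938 genes, 748, 8598, 884, 2758 and 118 passed in these fits. With all 39 confluent or 12 sorted arrays it was 1707, 6308, 1459, 2314 and 176. With the replicate block, 7 passed in the AM pair (whose numbers were not paired) and 7 between the lines grown alone (where pairing was uncertain). Under the block, 5 passed with KLS cells and 0 for KLS cells in BFC012. Of all genes, 8764, 3152, 2457 and 58 passed with the block in these comparisons, in the order given. With the 15 arrays of its set the AM pair had 6, where 7790 of all genes passed. Without BMC10 replicate 1 the BMC pair had 5, where 2936 of all genes passed, against 3082 with all 39 arrays. The AGM minus FL gap passed in 4 genes with the arrays of the set and in 4 with the block, the AGM minus BM gap in 2 with the arrays of the set, and the FL minus BM gap in 3 to 6 when single arrays were left out, 6 without BMC10 replicate 3. Over all genes the AGM minus FL gap passed in 3542 and 3467, against 4792 with all 39 arrays. It was 1496 against 2521 for AGM minus BM, and 4739 against 5077 for FL minus BM without BMC10 replicate 3. Leaving out single arrays gave 1 to 2 between the lines grown alone, 1 to 2 with KLS cells and 0 to 2 for KLS cells in BFC012. Over all genes, 1580 and 2241 passed between the lines grown alone where the count was 2. Between the lines with KLS cells 1381 to 1554 passed where it was 1. For KLS cells in BFC012, 373 passed where it was 2 and 70 to 82 where it was 0. Without replicate 1 of both groups grown alone, the counts were 5, 6, 2 and 4 for the lines alone, the lines with KLS cells, KLS cells in AFT024 and KLS cells in BFC012; without the 3 arrays that stand apart they were 5, 7, 2 and 7, with 1 for the interaction. Over all 19938 genes, 2405, 3924, 413 and 950 passed without replicate 1 of both groups grown alone. Without the 3 arrays it was 3901, 5354, 1195 and 2069, with 758 for the interaction. Fewer arrays were fitted in these settings, and the cause was not tested otherwise. Signs turned only for differences that did not pass. After renewed quantile normalization these were Mdk -0.018 in the BMC pair, 0.012 between the lines grown alone and -0.0013 for the AGM minus FL gap, Thbs1 0.013 in 2012 minus AFT011 and Tnc 0.028 in the AM pair. Without replicate 1 of both groups grown alone, Mdk was 0.042 between the lines grown alone, and for KLS cells in AFT024 Mgp was -0.61, Thbs1 -0.036, Thbs2 -0.071 and Efemp1 -0.33. Without the 3 arrays that stand apart these were 0.042, -0.90, -0.076, -0.26 and -0.22. Leaving out single arrays gave these lowest and highest values. In the UG26 pair the range was Ptn -0.17 to 0.31, Mdk -0.0008 to 0.22. For confluent AFT024 minus BFC012 the range was Mdk -0.027 to 0.14, Prg4 -0.044 to 0.22, Thbs1 -0.086 to 0.018. In the BMC pair the range was Mdk -0.045 to 0.066. For 2012 minus AFT011 the range was Thbs1 -0.017 to 0.014. In the AM pair the range was Tnc -0.037 to 0.0066, Mdk -0.089 to 0.043. Between the lines grown alone the range was Mdk -0.073 to 0.0047, Mgp -0.72 to 1.80. For KLS cells in AFT024 the range was Mgp -0.61 to 1.26, Thbs1 -0.077 to 0.29, Thbs2 -0.071 to 0.64, Efemp1 -0.33 to 0.40. For KLS cells in BFC012 the range was Postn -1.40 to 0.083, Mdk -0.0076 to 0.055. For the interaction the range was Tnc -0.32 to 0.94, Ptn -0.40 to 0.79. For the AGM minus FL gap the range was Mdk -0.052 to 0.17. For the AGM minus BM gap the range was Postn -0.18 to 0.41, Mdk -0.0201 to 0.21, Thbs1 -0.041 to 0.13, Thbs2 -0.49 to 0.12. For the FL minus BM gap the range was Mdk -0.047 to 0.12, Mgp -0.61 to 0.0063. Signal at or under the first quartile, as for Postn in BFC and AFT011, limits how large a fold change could be measured.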
